A study of Mus musculus with 12 samples.

Results

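NIH-3T3 cells carrying the oncogenic mutant CBL-70Z were compared here with NIH-3T3 cells carrying WT-CBL, gene by gene, in 6 RNA sequencing libraries out of the 12 of the series. CBL is an E3 ubiquitin ligase. It binds activated receptor tyrosine kinases, attaches ubiquitin to them and so sends them to the lysosome, and it also serves as a scaffold for adaptors such as GRB2, CRKL and the SH3 protein CIN85 (gene Sh3kbp1). CBL-70Z, first found in a mouse lymphoma, lacks a stretch between the tyrosine kinase-binding domain and the RING finger. It no longer acts as a ligase but still docks on receptors and adaptors, and it transforms fibroblasts. Downstream of receptor tyrosine kinases lie the RAS-ERK cascade, which switches on growth genes together with its own feedback inhibitors, and the small GTPase CDC42, which is loaded with GTP by exchange factors and shapes the actin cytoskeleton.

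The lines were NIH-3T3 stably expressing CBL-70Z (3 libraries) and NIH-3T3 stably expressing WT-CBL (3 libraries). NIH-3T3 is a mouse embryonic fibroblast line of NIH/Swiss background, and all cells were grown in serum, carried a FLAG-tagged construct or its empty vector (EV) and kept their endogenous mouse Cbl. A CBL-Y371S line (3 libraries), whose construct carries a point mutation, is used below for comparison. In the comparison with WT-CBL the 3 EV libraries served only to bring the tables to a common scale. They also entered the fit of all 12 libraries used for CBL-Y371S. The sources state neither how many clones a line held nor whether its 3 libraries came from separate cultures, so every p-value here measures only the spread between these libraries. Reads in genes ranged from 22454220 to 23675857 in the CBL-70Z libraries and from 23018097 to 25874715 in the WT-CBL libraries. Of 39179 gene IDs in the tables, 24710 had a read in these 6 libraries and 15046 reached a mean normalised read count of 10 in at least 1 of the lines. limma was run on log2(value + 1) of these 15046 genes, and a gene is called where its Benjamini-Hochberg adjusted p was below 0.05. Differences are given on that log2 scale as CBL-70Z minus WT-CBL with the limma standard error (SE), and they understate the change of genes with few reads.

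Many small differences and few large ones separated the lines. limma called 4740 genes (31.5% of those tested), of which 2638 (17.5%) were higher and 2102 (14%) lower in CBL-70Z. The percentages of called members in the gene lists below are to be read beside these 17.5% and 14%. The difference was under 0.5 in 83.2% of the called genes, and its median size among them was 0.24. A fold of 2 or more was reached by 189 called genes (1.26%), 92 higher (0.611%) and 97 lower (0.645%), and the libraries of the lines did not overlap in 90 of the 92 and 93 of the 97. Over all tested genes, 6896 (45.8%) had libraries that did not overlap. Most genes that differed by a fold of 2 or more had few reads. When only genes averaging 50 or more normalised reads in either line were kept, 85 reached that fold, and DESeq2 on the recovered reads gave 101. These are bulk RNA measurements, in which more RNA per cell and more cells of 1 kind cannot be told apart.

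Gene length and GC content moved with the comparison, and their values are given before the genes. WT-CBL replicate 3 stood apart, with a standard deviation of 0.089 around its line's mean log2 level over 11263 abundant genes, against 0.065 to 0.067 in the other WT-CBL libraries and 0.054 to 0.061 in the CBL-70Z libraries. The log2 difference followed the exon length of genes, with a Spearman rho of 0.46 over 11185 abundant genes, and followed GC content in the opposite direction (rho -0.28). Both correlations are across genes that share the same 6 libraries. With genes divided into 5 equal groups by exon length, 43.2% of the longest group were called higher and 6.75% lower, while 4.30% of the shortest group were called higher and 15.5% lower. The median difference was 0.12 in the longest group and -0.09 in the shortest. By library, the level relative to the 6-library mean rose with length in the CBL-70Z libraries (rho 0.38, 0.43 and 0.35) and fell with length in the WT-CBL libraries (rho -0.22, -0.20 and -0.56 for replicates 1 to 3). With a smooth trend in length and GC removed, 2212 genes (14.9% of 14879) were higher and 2291 (15.4%) lower. Each gene list below is therefore also given with this trend removed wherever that changed its counts by more than 1.5 times, and its part in the remaining calls was not tested.

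**Figure D1:**
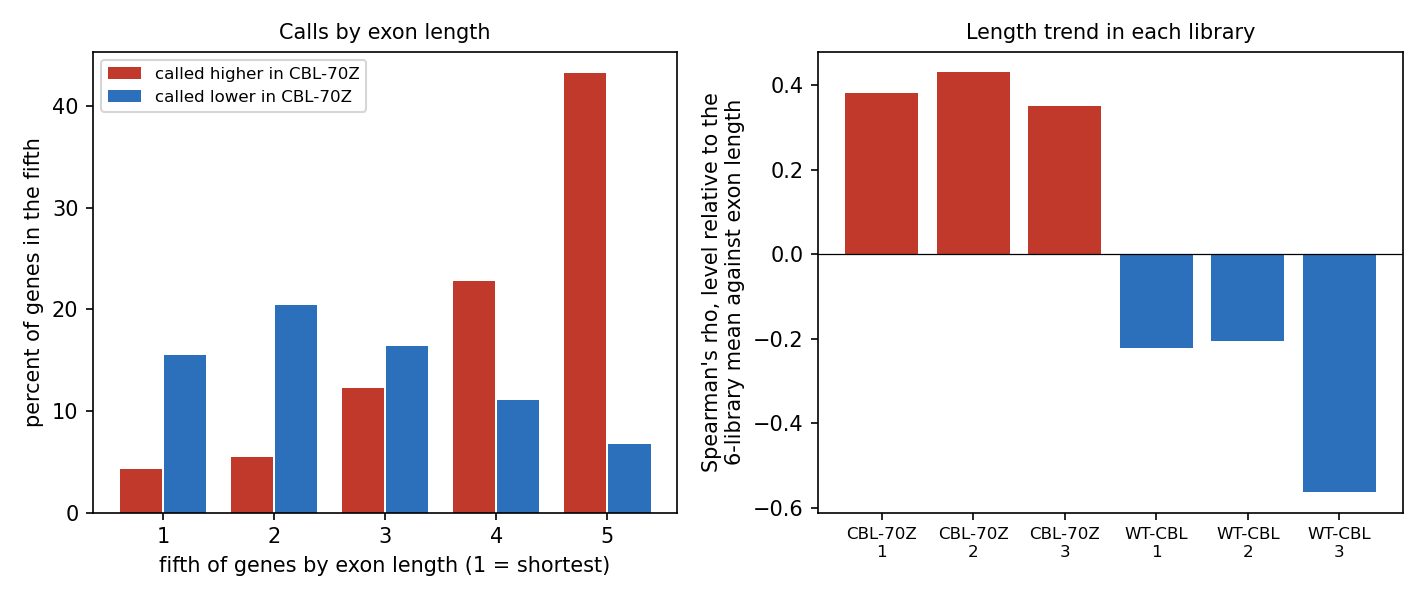
Calls by exon length. Left, percent of genes called higher (red) or lower (blue) in CBL-70Z in each of 5 equal groups of genes by exon length, shortest to longest. Right, Spearman's rho across 11185 genes between exon length and each library's level relative to the 6-library mean. Higher calls make up 4.30% of the shortest group and 43.2% of the longest, and WT-CBL replicate 3 has the lowest rho (-0.56).

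Fgd4 had the largest log2 difference of all called genes. It encodes frabin, an exchange factor that loads CDC42 with GTP, and lies on chromosome 16 (16416917 to 16600549 of GRCm38). Its normalised read counts were 189, 245 and 185 in the CBL-70Z libraries, against 9.68, 8.76 and 3.14 in the WT-CBL libraries. All CBL-70Z libraries stood far above all WT-CBL libraries. The log2 difference was 4.77 ± 0.29 (± SE, limma adjusted p = 3.21e-08). The next was Agtr2, which encodes the type 2 angiotensin receptor, with 85.5, 69.2 and 89.7 in CBL-70Z against 5.81, 2.19 and 3.14 in WT-CBL, a log2 difference of 4.19 ± 0.29 (limma adjusted p = 1.25e-07). Both genes had under 10 normalised reads in every WT-CBL library, so the size of these differences is less certain than their direction.

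Some genes of neuronal guidance and adhesion were much higher in CBL-70Z. Tenm4, a teneurin that joins cells across synapses, had 426, 481 and 423 normalised reads in CBL-70Z and 60.0, 61.3 and 48.1 in WT-CBL (2.96 ± 0.11 on the log2 scale). Sema7a, a membrane-anchored semaphorin that acts through integrins, had 1118, 1051 and 1129.9 in CBL-70Z and 204, 188 and 162 in WT-CBL (2.57 ± 0.08). Plxna4, a receptor for class 3 and class 6 semaphorins, had 129, 156 and 190.3 in CBL-70Z and 43.6, 58.0 and 33.4 in WT-CBL (1.81 ± 0.19). Every CBL-70Z library was above every WT-CBL library for these 3 genes. Sema5a, a transmembrane semaphorin, was at 1294 ± 49.1 in CBL-70Z and 485 ± 22.2 in WT-CBL (mean ± SD, n = 3 libraries each, log2 difference 1.41 ± 0.05), and Edil3, a matrix protein that binds integrins, was at 191 ± 8.79 in CBL-70Z and 54.3 ± 13.6 in WT-CBL (1.83 ± 0.16). The highest limma adjusted p among these 5 genes was 6.34e-06. In the whole list of axon guidance ligands and receptors, 10 of 49 tested members were higher (20.4%) and 8 lower (16.3%), near the 17.5% and 14% over all genes (median 0.07, against -0.00), and 13 were lower with the trend removed and WT-CBL replicate 3 left out. Among the lower ones were Sema3f (-0.57 ± 0.05) and the neuropilin Nrp1 (-0.42 ± 0.04), a co-receptor of class 3 semaphorins, while its relative Nrp2 was higher (0.28 ± 0.05).

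Several other genes of the 15 highest encode transporters, ligands and signaling proteins. Stra6, the membrane receptor for retinol-binding protein, had 877, 850.0 and 818 normalised reads in CBL-70Z and 177, 158 and 166 in WT-CBL (2.34 ± 0.07). The urea transporter Slc14a1 had 222, 209 and 189 in CBL-70Z and 37.8, 25.2 and 25.1 in WT-CBL (2.80 ± 0.16). Btc encodes betacellulin, a ligand of the EGF receptor, and had 88.6, 110.4 and 95.1 in CBL-70Z and 28.1, 13.1 and 32.4 in WT-CBL (2.04 ± 0.26). None of these genes overlapped between the lines, again a condition of being named among the 15 highest. Rgs16, which speeds up GTP hydrolysis by G-alpha subunits, had 1730.3, 1677 and 1649 in CBL-70Z and 506, 489 and 499 in WT-CBL (1.76 ± 0.05, limma adjusted p = 8.63e-12). Upp1, which splits uridine into uracil and ribose phosphate, was at 172 ± 8.73 in CBL-70Z and 41.9 ± 7.65 in WT-CBL (2.03 ± 0.14). Genes known from leukocytes were also among the 15, namely Cytip, a regulator of cytohesin (1.82 ± 0.09), the adaptor Fyb (1.64 ± 0.16) and the surface glycoprotein Cd200 (1.64 ± 0.13), while the blood cell marker Ptprc was below the filter. The peptidase inhibitor gene Pi15 completed the list (1.66 ± 0.15). The highest limma adjusted p of the 15 was 4.07e-05, for Btc.

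Slc6a12 had the lowest log2 difference of all called genes. It encodes a transporter of betaine and GABA and lies on chromosome 6 (121343076 to 121365775). It had 5.28, 5.58 and 6.49 normalised reads in the CBL-70Z libraries, against 147, 142 and 149 in the WT-CBL libraries, and the replicates of each line were tightly grouped. The log2 difference was -4.44 ± 0.19 (limma adjusted p = 6.55e-10). Among genes averaging 50 or more normalised reads in the higher line, the lowest differences after it included genes first known from epidermis. Dmkn, the secreted protein dermokine, had 12.7, 5.58 and 8.65 in CBL-70Z and 62.9, 51.4 and 64.8 in WT-CBL (-2.66 ± 0.27). Cdsn, the corneodesmosin gene, had 299.6, 253 and 265 in CBL-70Z and 1033, 1043 and 1022 in WT-CBL (-1.92 ± 0.06). The libraries of the lines were far apart for all 3 genes. The 6 general markers of epithelial cells summed to 87.6 to 112 in CBL-70Z and 134 to 236 in WT-CBL. Of the 3 that were tested, 1 (Krt14) was called lower and 2 were not called. The part of epithelial markers in these differences was not tested. The locus U90926 had 233, 222 and 219 in CBL-70Z and 961, 848 and 1014 in WT-CBL (-2.06 ± 0.07). The retinaldehyde dehydrogenase Aldh1a1, which makes retinoic acid, had 108, 114 and 139 in CBL-70Z and 291, 336 and 335 in WT-CBL (-1.41 ± 0.11).

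Genes for small GTPases and matrix proteins were among the 15 lowest. Rasl11a, a Ras-like protein, had 2325, 2299 and 2313 in CBL-70Z and 5268, 5418 and 5755 in WT-CBL (-1.24 ± 0.04, limma adjusted p = 2.06e-11), and Diras2 had 60.1, 73.6 and 74.6 in CBL-70Z and 163, 185 and 142 in WT-CBL (-1.22 ± 0.13). Neither gene overlapped between the lines, as the same condition required. The matrix genes were Wisp2, a CCN-family matricellular protein, with 2727, 2688 and 2827 in CBL-70Z and 6785, 6772 and 7070.0 in WT-CBL (-1.32 ± 0.04), and Postn, which encodes periostin, with 62.2, 42.4 and 49.7 in CBL-70Z and 205, 97.4 and 114 in WT-CBL (-1.36 ± 0.22, limma adjusted p = 0.000396). Postn was uneven among the WT-CBL libraries, where replicate 1 was the highest. Other genes of the 15 were the helix-loop-helix inhibitor Id4, the smooth-muscle actin Actg2 (both described below), the serine protease inhibitor Serpinb9b (-1.41 ± 0.19), Veph1 (-1.36 ± 0.19), which overlaps Ptx3, and the nuclear protein gene Aff3 (-1.31 ± 0.12). Postn had the highest limma adjusted p of the 15.

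**Figure D2:**
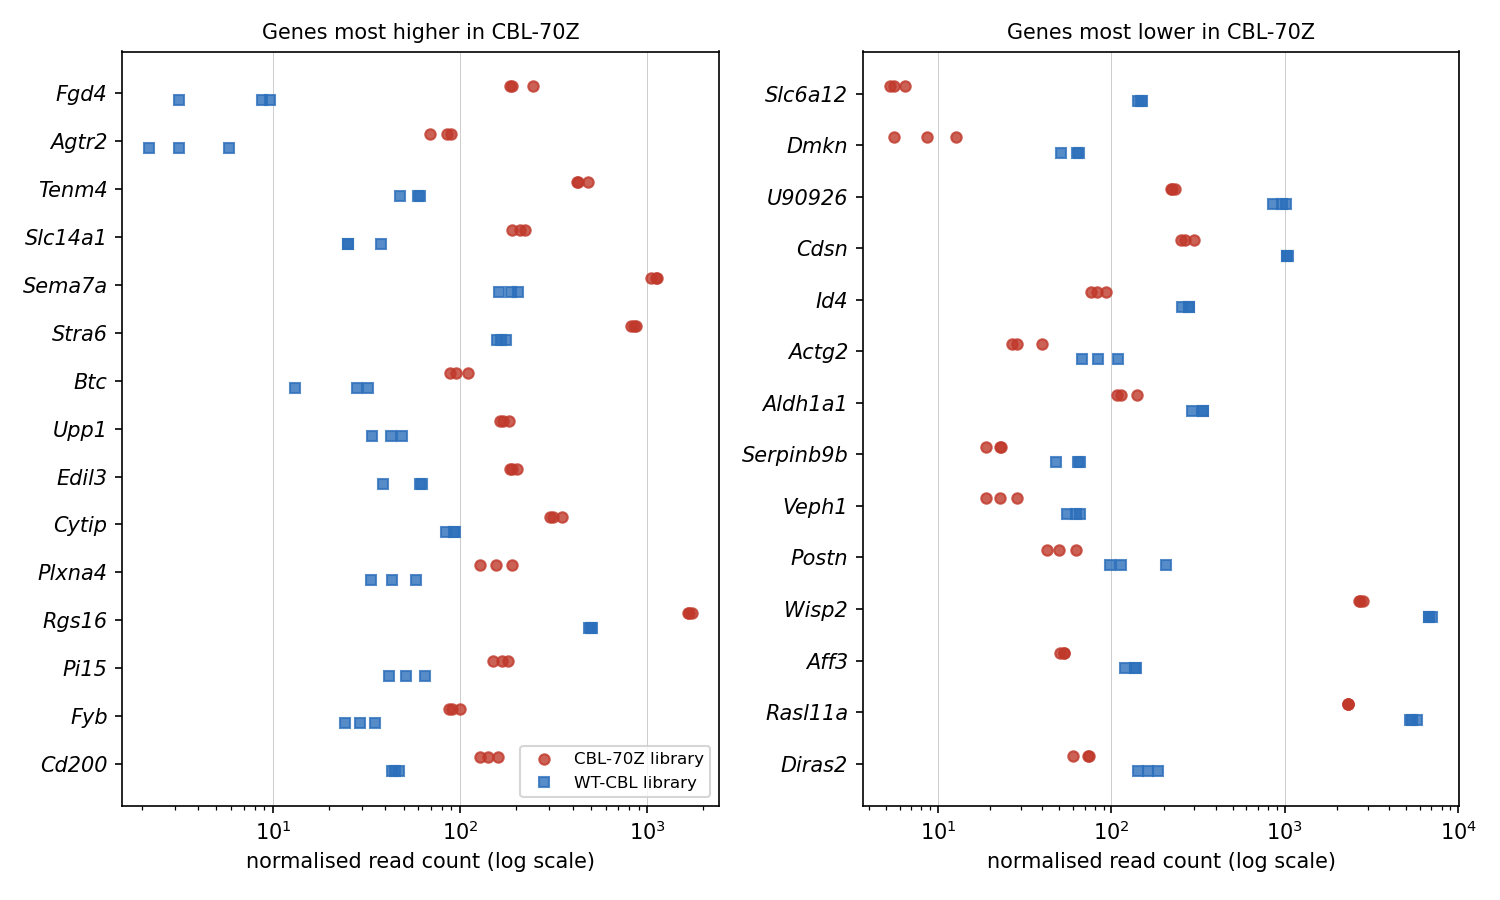
Normalised read counts (log axis) of the 15 genes most higher (left) and 14 of the 15 most lower (right) in CBL-70Z, 1 red circle for each of the 3 CBL-70Z libraries and 1 blue square for each of the 3 WT-CBL libraries. The lines do not overlap for any of the 29 genes drawn, which the rule for naming them required.

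Most ERK pathway target genes were higher in CBL-70Z. Of the 26 genes of this list 25 were tested, and 16 were higher (64%) and 0 lower (median log2 difference 0.41, against -0.00 over all genes tested). The PEA3-group ETS transcription factors, which are induced by ERK signaling, led the list. Etv5 had 848, 856 and 829 normalised reads in CBL-70Z and 389, 407 and 383 in WT-CBL (1.10 ± 0.05, limma adjusted p = 3.28e-09). Etv1 had 319.7, 321 and 318 in CBL-70Z and 167, 146 and 152 in WT-CBL (1.04 ± 0.08). Etv4 had 879.9, 832 and 879 in CBL-70Z and 428, 472 and 463 in WT-CBL (0.93 ± 0.06). Each of the 3 was close to 2 times as high in CBL-70Z as in WT-CBL, with no overlap of the libraries. Several feedback inhibitors of the pathway were higher too. Among the Sprouty and Spred proteins, which block RAS activation, Spry4 was at 421 ± 10.2 in CBL-70Z and 233 ± 34.9 in WT-CBL (mean ± SD, n = 3 each), with a log2 difference of 0.86 ± 0.09, and Spred3 (0.77 ± 0.06), Spred2 (0.50 ± 0.05), Spred1 (0.50 ± 0.04) and Spry2 (0.40 ± 0.06) were also called higher. Spry1 was not called (0.07 ± 0.08, limma adjusted p = 0.571).

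Among the dual-specificity phosphatases of MAP kinases, Dusp6 was at 1809 ± 33.6 in CBL-70Z and 1158 ± 83.6 in WT-CBL (0.65 ± 0.05, limma adjusted p = 3.39e-07). The nuclear phosphatases Dusp4 (0.53 ± 0.08) and Dusp5 (0.41 ± 0.07) were higher as well. Dusp1, which was placed among the immediate early genes and not in the ERK list, was lower (-0.50 ± 0.04). The architectural chromatin protein Hmga2 had 9242, 9309 and 9292 in CBL-70Z and 4628, 4531 and 4534 in WT-CBL (1.02 ± 0.03, limma adjusted p = 2.06e-11), and the cyclin D1 gene Ccnd1 had 7011, 7019 and 7017 in CBL-70Z and 5025, 4863 and 4685 in WT-CBL (0.53 ± 0.03). Lif, a cytokine of the interleukin-6 family, was also higher (0.73 ± 0.08). Egr1, typical of the acute response to serum, was not called and had 1384, 1301 and 1277 in CBL-70Z and 1323, 1311 and 1254 in WT-CBL (0.03 ± 0.05, limma adjusted p = 0.698). Erf, an ETS repressor that ERK phosphorylates, differed by 0.05 ± 0.04 (limma adjusted p = 0.293), and with the length and GC trend removed by 0.14 (limma adjusted p = 0.00371). With that trend removed the list had 19 higher and 0 lower, and without WT-CBL replicate 3 it had 17 and 0. In a separate list, which shares some of these genes, 29 immediate early genes were tested. Of these 5 were higher (17.2%, near the 17.5% over all genes) and 6 lower (20.7%), with a median of -0.04. The lower calls numbered 3 with the trend removed, 3 without CBL-70Z replicate 1, 2 without CBL-70Z replicate 2 and 2 without WT-CBL replicate 1. Fosl1, Klf6, Jun and Nab1 were among the higher ones. Dusp1 was the lowest (-0.50 ± 0.04) and the orphan nuclear receptor Nr4a2 the highest (0.53 ± 0.07).

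**Figure D3:**
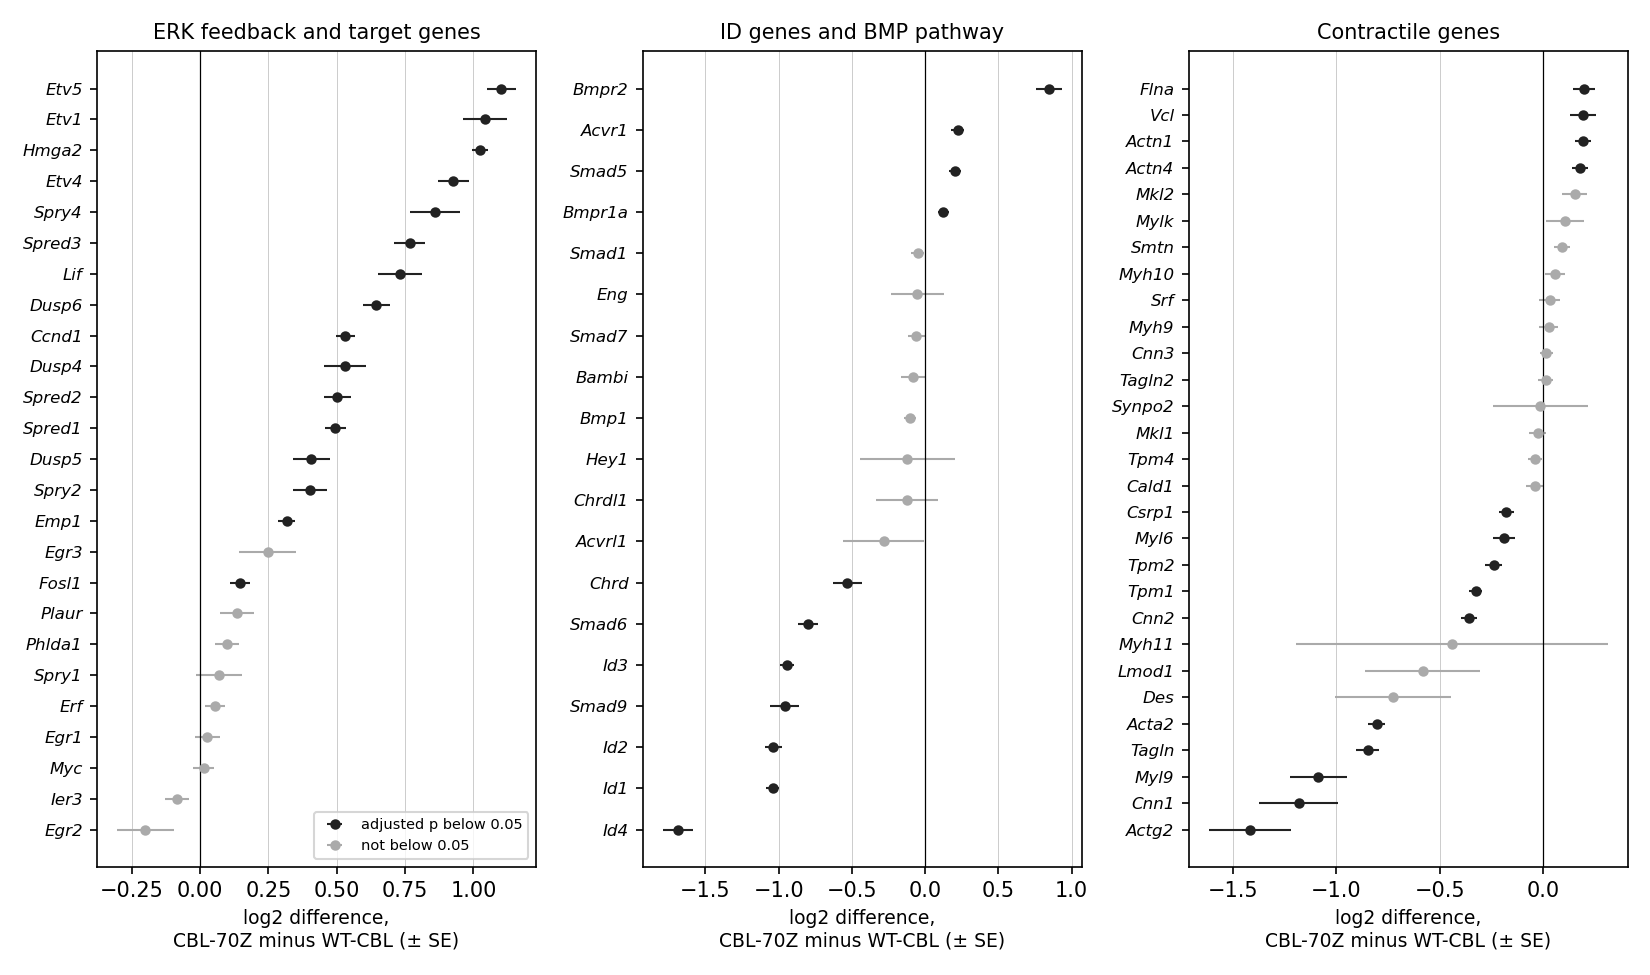
Log2 difference, CBL-70Z minus WT-CBL, with its limma SE for the members of 3 gene lists. Black points passed an adjusted p of 0.05 and grey points did not. In the ERK list 16 of 25 are higher and 0 lower, in the ID and BMP list 4 are higher and 8 lower of 20 (19 of them drawn), and in the contractile list 4 are higher and 10 lower of 29.

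Genes of CDC42 loading moved unevenly beyond Fgd4. Of 17 tested CDC42 exchange factors 8 were higher (47.1%) and 2 lower (11.8%), with a median of 0.19. Dock8, best known from leukocyte migration, had 954, 941 and 927 normalised reads in CBL-70Z and 360.1, 416 and 333 in WT-CBL (1.35 ± 0.07, limma adjusted p = 7.39e-09). Fgd6 was at 277 ± 28.7 in CBL-70Z and 183 ± 22.3 in WT-CBL (0.60 ± 0.10), and Dock9 and Itsn2 were among the others called higher. Fgd3, a relative of Fgd4, went the other way with 206, 204 and 219 in CBL-70Z and 354, 349 and 312 in WT-CBL (-0.69 ± 0.08, limma adjusted p = 1.43e-05). With the trend removed 9 were higher and 5 lower. The lower calls numbered 1 when any single library other than WT-CBL replicate 3 was left out, and 3 without that one. Cdc42 itself was not called (-0.08 ± 0.03, limma adjusted p = 0.0786) and with the trend removed was lower by a small margin (-0.09, limma adjusted p = 0.0157). Pak1, a kinase that binds GTP-loaded CDC42, was higher, with 1376, 1389 and 1425 in CBL-70Z and 1146, 1149 and 1199 in WT-CBL (0.26 ± 0.04).

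Reads at the mouse Cbl gene were more numerous in CBL-70Z cells. Cbl had 1756, 1877 and 1666 normalised reads in CBL-70Z and 826, 952 and 709.6 in WT-CBL (1.10 ± 0.08, limma adjusted p = 1.99e-07), and reads of the introduced CBL are counted there only as far as they align to the mouse gene, so these values do not give the amount of either CBL protein. The related ligase Cblb had 1174, 1102 and 1135 in CBL-70Z and 794, 759.5 and 727 in WT-CBL (0.58 ± 0.05, limma adjusted p = 8.59e-07). In the list of the CBL family and CBL-bound proteins, 14 of 25 tested members were higher (56%) and 1 (4%), the SRC-family kinase Fyn, was lower (median 0.19). The call of Fyn (-0.14 ± 0.05) was lost when CBL-70Z replicate 2 or 3 or WT-CBL replicate 1 or 2 was left out. The docking protein Gab2 (0.47 ± 0.12), the RAS exchange factor Sos2 (0.32 ± 0.07) and the adaptor Crkl (0.28 ± 0.05) were among the higher ones. Sh3kbp1, which encodes CIN85, had 5519.9, 5705 and 5328 in CBL-70Z and 4632, 4755 and 4668 in WT-CBL (0.24 ± 0.03, limma adjusted p = 0.00016). The median exon length of the list was 6931 bases, against 3806 over all genes. With the trend removed 8 were higher and 3 lower, and Sh3kbp1 no longer passed (0.08, limma adjusted p = 0.0651), while Cblb did (0.45). Akt1 differed by 0.02 ± 0.03 (limma adjusted p = 0.609) and, with the trend removed, by 0.09 (limma adjusted p = 0.0196).

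Transcripts of receptor tyrosine kinases mostly differed by modest amounts. Of 21 tested receptor tyrosine kinases 10 were higher (47.6%) and 7 lower (33.3%), and without CBL-70Z replicate 3 the higher ones were 6. With the length and GC trend removed 7 were higher and 7 lower, and the median was 0.02 in place of 0.15. Mertk, a receptor for bridging ligands on dying cells, had 81.2, 68.0 and 82.2 in CBL-70Z and 40.7, 26.3 and 26.1 in WT-CBL (1.31 ± 0.19, limma adjusted p = 0.000125). The hepatocyte growth factor receptor Met had 2038, 2137 and 2074 in CBL-70Z and 1482, 1519 and 1354 in WT-CBL (0.52 ± 0.05). The collagen receptor Ddr1 had 1701, 1664 and 1786 in CBL-70Z and 2380.3, 2553 and 2355 in WT-CBL (-0.50 ± 0.04), with no overlap in any of the 3. The PDGF receptor Pdgfra (0.22 ± 0.03) and the insulin-like growth factor receptor Igf1r (0.39 ± 0.07) were higher too. The call of the EGF receptor gene Egfr (0.16 ± 0.06, limma adjusted p = 0.0456) was lost with the trend removed (-0.01, limma adjusted p = 0.951), in DESeq2 (adjusted p = 0.109) and when any single library other than WT-CBL replicate 2 was left out. Of 33 tested growth factor ligands 11 were higher (33.3%) and 7 lower (21.2%). Besides Btc, the EGF receptor ligand Ereg (0.52 ± 0.06) was higher. Kitl, the ligand of the KIT receptor, had 3741, 3971 and 3942 in CBL-70Z and 2307, 2180.1 and 1974 in WT-CBL (0.85 ± 0.05). Igf1 had 59.1, 44.6 and 48.7 in CBL-70Z and 128, 98.5 and 118 in WT-CBL (-1.16 ± 0.15), and pleiotrophin, Ptn, was lower too (-0.77 ± 0.16).

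All 4 ID genes were lower in CBL-70Z. ID proteins bind basic helix-loop-helix factors, keep them off DNA and are classic targets of BMP-activated SMADs. Id1 had 954, 921 and 979.6 normalised reads in CBL-70Z and 1879, 1952 and 2047 in WT-CBL (-1.04 ± 0.05, limma adjusted p = 9.64e-10). Id2 had 777, 859 and 728 in CBL-70Z and 1569, 1580.4 and 1693 in WT-CBL (-1.04 ± 0.06). Id4 had 92.8, 82.5 and 75.7 in CBL-70Z and 279, 255 and 280.1 in WT-CBL (-1.69 ± 0.10). Every CBL-70Z library lay well below every WT-CBL library for these 3 genes, which for Id4 the naming rule required. Id3 was at 1867 ± 27.1 in CBL-70Z and 3593 ± 270.1 in WT-CBL (-0.94 ± 0.05). The inhibitory SMAD gene Smad6, another BMP target, was lower (-0.80 ± 0.07), as was Smad9 (-0.96 ± 0.10). The BMP type 2 receptor Bmpr2 was higher (0.84 ± 0.09) and remained so with the trend removed (0.58). In all, 4 of 20 tested members of this list were higher (20%) and 8 lower (40%). Without WT-CBL replicate 3 or with the trend removed 9 were lower. Of 24 tested genes of the TGF-beta and activin pathway 7 were higher (29.2%) and 5 lower (20.8%). Inhba, the activin A subunit, had 615, 625 and 649 in CBL-70Z and 391, 387 and 307 in WT-CBL (0.81 ± 0.08), whereas the activin antagonist follistatin, Fst, had 186, 189 and 196 in CBL-70Z and 316, 304 and 321 in WT-CBL (-0.72 ± 0.07). Ltbp2, a matrix protein related to the latent TGF-beta binding proteins, was lower (-0.52 ± 0.04). The call of the activin receptor Acvr2b (0.42 ± 0.15, limma adjusted p = 0.042) was lost in DESeq2 (adjusted p = 0.131) and when any single CBL-70Z library or WT-CBL replicate 3 was left out.

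Of 17 tested retinoid genes 6 were lower (35.3%, against 14% over all genes) and 3 higher (17.6%, near the 17.5% over all genes), and 5 were higher with the trend removed and WT-CBL replicate 3 left out. Besides Stra6, the cytosolic carrier Crabp1 was higher, with 5955, 5729 and 5846 in CBL-70Z and 2567, 2581 and 2902 in WT-CBL (1.12 ± 0.04, limma adjusted p = 3.89e-10), as was the retinol dehydrogenase Rdh10 (0.39 ± 0.06). Besides Aldh1a1, its neighbour and relative Aldh1a7 was lower, with 17.9, 35.7 and 34.6 in CBL-70Z and 56.1, 72.2 and 61.7 in WT-CBL (-1.14 ± 0.23). Also lower were Cyp26b1, which breaks down retinoic acid (-0.62 ± 0.04), the retinaldehyde reductase Dhrs3 (-0.67 ± 0.05) and the nuclear receptors Rara (-0.36 ± 0.04) and Rxrb (-0.17 ± 0.04). Thus the uptake receptor and the carrier were higher, and a dehydrogenase that makes retinoic acid and a P450 that removes it were both lower. Of 10 tested RGS genes 3 were higher and 3 lower (30.0% each). Rgs4 had 147, 161 and 137 in CBL-70Z and 252, 271 and 237 in WT-CBL (-0.77 ± 0.09), in the opposite direction to Rgs16. Rgs5 (-0.68 ± 0.21) and Rgs10 (-0.26 ± 0.06) were lower, Rgs2 was higher (0.17 ± 0.05), and Rgs17 was higher (0.27 ± 0.07) but did not pass with the trend removed (0.11, limma adjusted p = 0.228). The call of Rgs5 was lost when CBL-70Z replicate 1 or 3 or WT-CBL replicate 1 or 2 was left out, with a limma adjusted p of up to 0.0886, and that of Rgs2 without CBL-70Z replicate 2, CBL-70Z replicate 3 or WT-CBL replicate 2 (up to 0.0612).

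Smooth-muscle actin genes were lower. Actg2 had 28.5, 26.8 and 40.0 normalised reads in CBL-70Z and 109, 83.2 and 67.9 in WT-CBL (-1.42 ± 0.20, limma adjusted p = 0.000105). The calponin gene Cnn1 had 20.0, 29.0 and 23.8 in CBL-70Z and 57.1, 49.2 and 61.7 in WT-CBL (-1.18 ± 0.19). The myosin light chain gene Myl9 had 52.8, 48.0 and 55.1 in CBL-70Z and 122, 94.1 and 120.2 in WT-CBL (-1.09 ± 0.14). The libraries of the lines were separated for all 3, which for Actg2 the naming rule required. Tagln, the actin-binding transgelin, had 647, 581 and 587 in CBL-70Z and 1129.7, 1039.7 and 1102 in WT-CBL (-0.85 ± 0.06, limma adjusted p = 6.08e-08), and the alpha smooth-muscle actin Acta2 was at 1374 ± 46.5 in CBL-70Z and 2402 ± 83.9 in WT-CBL (-0.81 ± 0.04). The tropomyosins Tpm1 (-0.33 ± 0.03) and Tpm2 (-0.24 ± 0.04) and 3 other members were lower by less. By contrast 4 members that anchor actin filaments broadly, Flna, Vcl, Actn1 and Actn4, were higher by 0.18 to 0.20. Of 29 tested members 4 were thus higher (13.8%) and 10 lower (34.5%). The call of Vcl was lost with the trend removed (0.11, limma adjusted p = 0.075) and when any single CBL-70Z library was left out. The gene of the transcription factor SRF, which drives contractile genes, was not called (0.03 ± 0.05, limma adjusted p = 0.667).

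Fibrillar collagens and their processing enzymes were lower in CBL-70Z. Of 49 tested members 9 were higher (18.4%) and 29 lower (59.2%), with a median of -0.24. Without WT-CBL replicate 3 the counts were 8 and 34. The type I collagen chains, the main collagen of fibroblasts, gave 171132, 171217 and 175884 normalised reads in CBL-70Z and 245861, 248680.0 and 232661 in WT-CBL for Col1a1 (-0.49 ± 0.04, limma adjusted p = 5.74e-07). For Col1a2 they gave 199600.0, 206925 and 203537 in CBL-70Z and 267702, 272642 and 266525 in WT-CBL (-0.40 ± 0.04). Among the minor collagens Col10a1 had 211, 248 and 223 in CBL-70Z and 423, 409 and 381 in WT-CBL (-0.83 ± 0.08), and Col22a1 (-0.87 ± 0.15) and Col18a1 (-0.58 ± 0.07) were lower too. No library of one line overlapped the other for these genes. The lysyl oxidases Lox (-0.35 ± 0.04), Loxl1 (-0.44 ± 0.03) and Loxl4 (-0.59 ± 0.06), which cross-link collagen, the collagen chaperone Serpinh1 (-0.36 ± 0.03) and the prolyl 3-hydroxylase genes Lepre1 (-0.29 ± 0.04) and Leprel4 (-0.30 ± 0.04) were also lower. Exceptions included the type III chain Col3a1 (0.34 ± 0.03), the type VI chain Col6a3 (0.39 ± 0.06) and the basement membrane chains Col4a1 (0.24 ± 0.04) and Col4a2 (0.19 ± 0.05), which were higher.

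Of 36 tested matricellular and glycoprotein matrix genes 7 were higher (19.4%) and 19 lower (52.8%), with a median of -0.17. The CCN genes Ctgf (-0.59 ± 0.04) and Cyr61 (-0.61 ± 0.04) and the thrombospondin Thbs1 (-0.68 ± 0.04), which are known targets of the YAP and TEAD proteins, were lower together with Wisp2. Ctgf was at 1186 ± 42.7 in CBL-70Z and 1784 ± 39.1 in WT-CBL. The collagen-binding protein Sparc (-0.48 ± 0.03) and the leucine-rich proteoglycan Ogn were lower as well, with 808, 812 and 753 in CBL-70Z and 1437, 1389 and 1416 in WT-CBL for Ogn (-0.84 ± 0.05). Other small leucine-rich proteoglycans went the opposite way. Lum, which encodes lumican, had 4217, 4369 and 4316 in CBL-70Z and 2649, 2442 and 2467 in WT-CBL (0.77 ± 0.04, limma adjusted p = 4.93e-09), and decorin, Dcn, had 24996, 26499.5 and 25868 in CBL-70Z and 18529.5, 18093 and 17863 in WT-CBL (0.51 ± 0.03). The laminin chain Lama4 had 511, 495 and 453 in CBL-70Z and 245, 252 and 237 in WT-CBL (0.99 ± 0.07), and osteopontin, Spp1, was higher by 0.64 ± 0.03. In the list of metalloproteases, plasminogen activators and inhibitors 7 of 42 tested were higher (16.7%) and 17 lower (40.5%), with a median of -0.13. Prss23, a secreted serine protease, had 1283, 1325 and 1341 in CBL-70Z and 2936, 2707 and 2744 in WT-CBL (-1.09 ± 0.04), and the gelatinase Mmp9 had 1069.8, 1014 and 1081 in CBL-70Z and 694, 668 and 676 in WT-CBL (0.63 ± 0.05). The inhibitors Timp1, Timp2 and Timp3 were each lower, with log2 differences of -0.29 to -0.27.

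**Figure D4:**
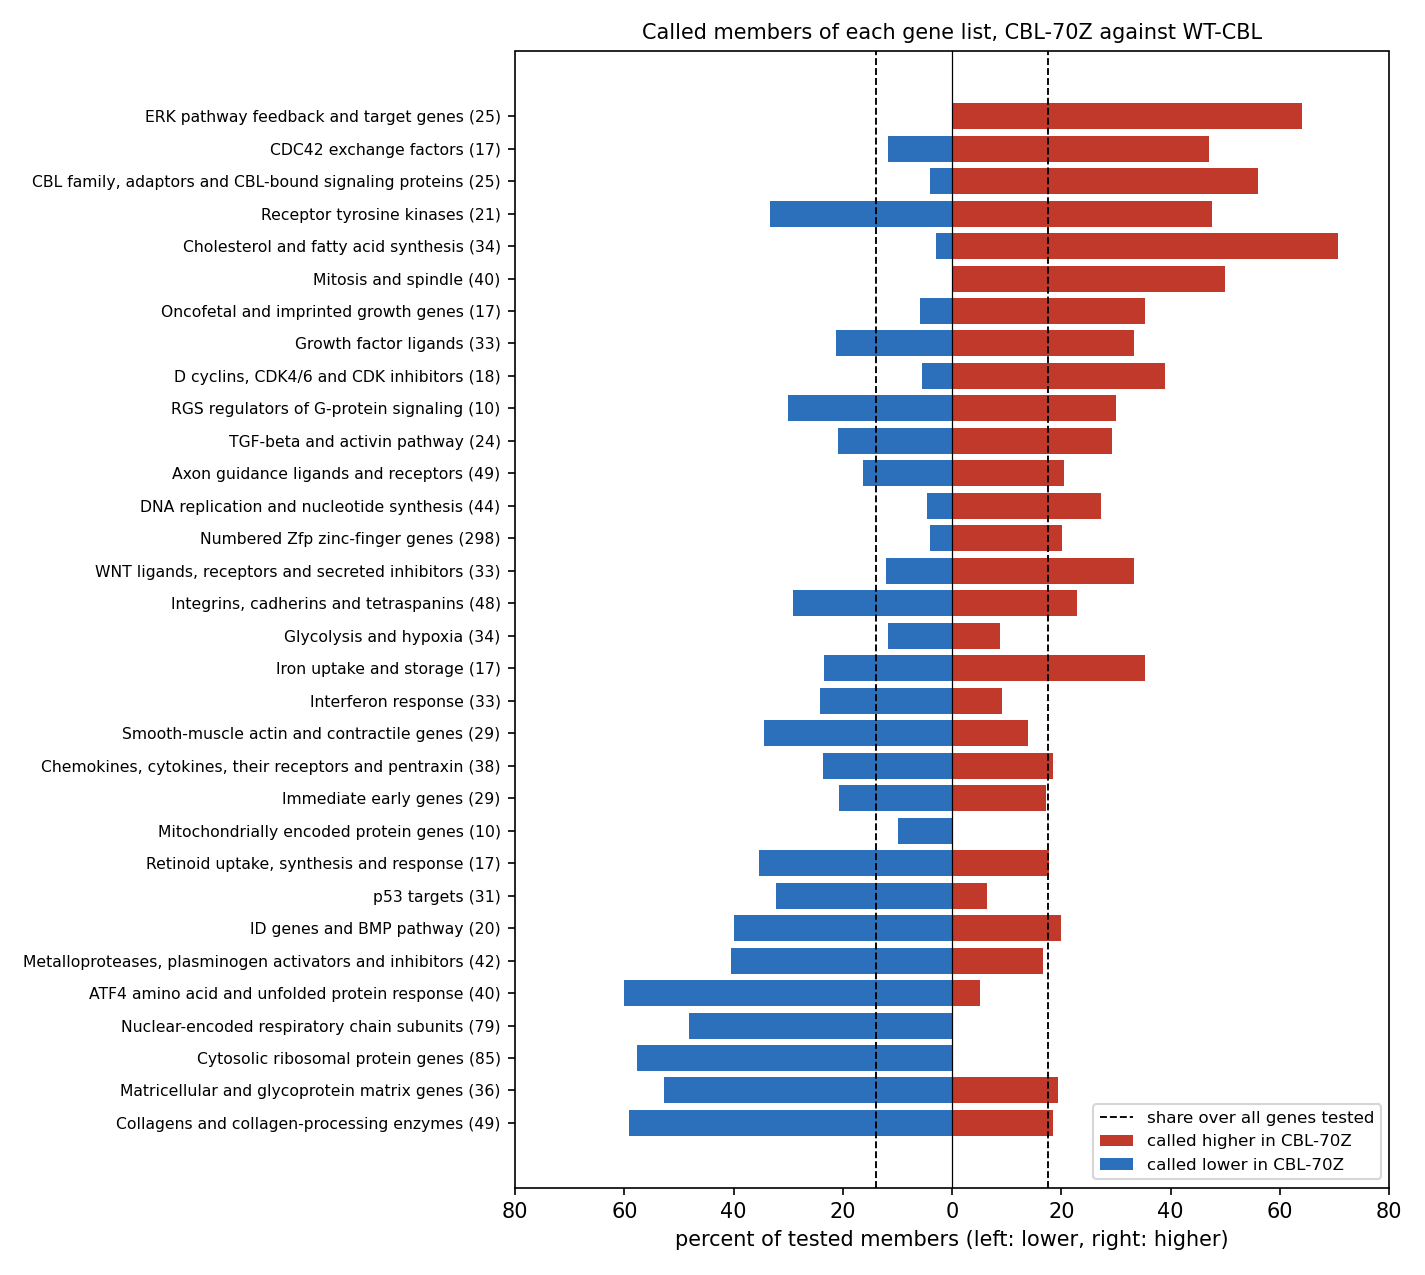
Percent of the tested members of each gene list called higher (red, right) or lower (blue, left) in CBL-70Z, with the number tested in parentheses and lists ordered by median log2 difference. Dashed lines mark the shares over all genes tested (17.5% higher, 14% lower). The ERK list has the highest median (0.41) and the collagen list the lowest (-0.24).

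The start regions of the 152 genes named by the rule given under data processing were read for 3 short motifs. The reason was that contractile and CCN genes are textbook targets of SRF and TEAD factors, and ERK-linked genes of AP-1. Genes named outside that rule, among them Ctgf, Cyr61, Thbs1 and Acta2, were not read. RefSeq promoter windows (250 bases before to 50 after a transcription start, GRCm38.p6) were held for 117 of the 152 named genes. The letters TGANTCA of AP-1 were found on either strand in a window of 2 of 11 genes among the 15 highest, 4 of 12 among the 15 lowest and 18 of 117 named genes (15.4%), against 6.26% of 9717 tested genes and 8.97% of all 27025 genes with a window. The letters GGAATG of TEAD were in a window of 4 of 11, 5 of 12 and 22 of 117 genes (18.8%), against 14.6% of tested genes and 16.6% of all. The CArG box of SRF was found for Myl9 and Zfp871 alone, 1.71% of named genes against 1.60% of tested genes and 1.81% of all. Of the contractile genes named by the rule only 2 had a window, and the other members of that list were not read. The contractile genes as a group were therefore not covered. A match is a description of letters, and a gene with several windows has more chances to hold one. The windows below were chosen because they hold the letters shown in capitals, AP-1 or for Myl9 the CArG box. They belong to the called genes with the largest and the lowest difference, a further member of each extreme and a contractile gene. Each is given 5′ to 3′ on the gene's strand.
Fgd4, chr16:16560170-16560469, minus strand: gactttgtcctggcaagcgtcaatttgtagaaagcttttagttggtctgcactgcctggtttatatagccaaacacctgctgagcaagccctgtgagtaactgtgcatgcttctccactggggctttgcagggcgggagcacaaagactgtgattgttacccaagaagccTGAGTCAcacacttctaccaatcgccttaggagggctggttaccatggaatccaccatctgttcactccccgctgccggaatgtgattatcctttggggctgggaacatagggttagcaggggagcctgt
Upp1, chr11:9117758-9118057, plus strand: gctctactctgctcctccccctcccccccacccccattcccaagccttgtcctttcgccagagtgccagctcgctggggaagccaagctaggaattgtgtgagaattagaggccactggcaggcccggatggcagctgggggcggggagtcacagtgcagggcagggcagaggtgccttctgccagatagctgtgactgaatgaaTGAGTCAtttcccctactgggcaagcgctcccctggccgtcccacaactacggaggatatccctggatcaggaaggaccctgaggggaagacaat
Slc6a12, chr6:121342324-121342623, plus strand: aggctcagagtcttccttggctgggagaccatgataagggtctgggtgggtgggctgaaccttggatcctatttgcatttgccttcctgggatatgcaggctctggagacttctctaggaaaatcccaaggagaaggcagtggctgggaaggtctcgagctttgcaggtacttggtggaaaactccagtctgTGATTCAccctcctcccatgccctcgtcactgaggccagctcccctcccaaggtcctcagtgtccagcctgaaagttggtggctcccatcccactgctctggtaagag
Aldh1a1, chr19:20492333-20492632, plus strand: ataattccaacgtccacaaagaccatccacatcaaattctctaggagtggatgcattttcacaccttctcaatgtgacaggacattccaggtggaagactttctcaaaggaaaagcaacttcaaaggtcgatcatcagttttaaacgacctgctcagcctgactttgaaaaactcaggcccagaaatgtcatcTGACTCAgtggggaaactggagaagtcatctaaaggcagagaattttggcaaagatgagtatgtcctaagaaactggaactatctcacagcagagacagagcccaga
Myl9, chr2:156775214-156775513, plus strand: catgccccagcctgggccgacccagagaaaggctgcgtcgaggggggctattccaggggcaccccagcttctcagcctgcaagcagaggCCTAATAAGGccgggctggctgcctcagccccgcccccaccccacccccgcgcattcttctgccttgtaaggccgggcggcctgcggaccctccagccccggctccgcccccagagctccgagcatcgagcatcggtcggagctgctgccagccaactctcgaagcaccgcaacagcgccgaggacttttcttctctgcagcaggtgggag
The Fgd4 window is that of 1 of its 3 annotated starts. Its AP-1 letters lie at positions -80 to -74, and those of Upp1 at -45 to -39, counted from 0 at the first transcribed base. Those of Slc6a12 lie at -58 to -52 and those of Aldh1a1 at -57 to -51. Because the windows were chosen for these letters, their presence at both ends of the comparison is not a result. The CArG box of Myl9 lies at -161 to -152.

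Of 48 tested integrins, cadherins and tetraspanins 11 were higher (22.9%) and 14 lower (29.2%), against 17.5% and 14% over all genes. The laminin-binding integrin Itga6 had 1291, 1258 and 1284 normalised reads in CBL-70Z and 652, 546 and 529.9 in WT-CBL (1.15 ± 0.07, limma adjusted p = 1.90e-08). The tetraspanin Tspan33 was at 78.7 ± 3.45 in CBL-70Z and 185 ± 9.86 in WT-CBL (-1.22 ± 0.10). The leukocyte integrin chain Itgb2 (0.69 ± 0.14) and the cadherin Cdh26 (-0.57 ± 0.10) were among those with the largest differences. The collagen-binding integrin Itga11 was lower (-0.42 ± 0.07) and the vitronectin receptor chains Itgav (0.29 ± 0.05) and Itgb3 (0.40 ± 0.05) were higher. Of 38 tested chemokines, cytokines and receptors 7 were higher (18.4%, near the share over all genes) and 9 lower (23.7%). Ptx3, a secreted pentraxin of innate immunity, had 4953, 4953 and 5085 in CBL-70Z and 11598, 11347 and 11966 in WT-CBL (-1.22 ± 0.03, limma adjusted p = 8.63e-12). The chemokine receptor Ccr7 was at 96.5 ± 6.93 in CBL-70Z and 217 ± 22.3 in WT-CBL (-1.16 ± 0.10), and Csf1r, the receptor for the macrophage growth factor CSF1, at 25.9 ± 4.20 in CBL-70Z and 51.9 ± 12.1 in WT-CBL (-0.96 ± 0.21). Interleukin 6, Il6, was lower (-0.52 ± 0.09).

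Of 33 tested WNT pathway members 11 were higher (33.3%) and 4 lower (12.1%). Lgr6, a receptor for R-spondins, had 55.9, 79.2 and 74.6 in CBL-70Z and 28.1, 18.6 and 24.0 in WT-CBL (1.53 ± 0.20). The secreted WNT inhibitor Dkk2 had 1058, 1062 and 1139 in CBL-70Z and 572, 612 and 615 in WT-CBL (0.86 ± 0.05). Wnt5a had 1152, 1157 and 1105 in CBL-70Z and 863, 708 and 734 in WT-CBL (0.57 ± 0.06, limma adjusted p = 1.54e-05). Rnf43, a ligase that removes WNT receptors, had 138, 148 and 161 in CBL-70Z and 270.1, 287 and 218 in WT-CBL (-0.78 ± 0.11). These genes hold both activators and inhibitors of the pathway. The lower calls, which were Rnf43, Wnt4, Fzd7 and Lgr4, numbered 2 when any single CBL-70Z library was left out and 2 without WT-CBL replicate 1.

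Some oncofetal and cell cycle genes were higher. Of 17 tested oncofetal and imprinted growth genes 6 were higher (35.3%) and 1 lower (5.88%). The lower ones were 2 with the trend removed, without CBL-70Z replicate 2 and without WT-CBL replicate 3. Hmga1 had 1977, 1947 and 1991 normalised reads in CBL-70Z and 1201, 1171 and 1297 in WT-CBL (0.69 ± 0.04), although reads that may be shared with near-identical copies of this gene were not measured, so its level is uncertain. Dlk1, an imprinted Notch-like protein, was lower, with 28194, 26632 and 27870.5 in CBL-70Z and 39564, 39269 and 40533 in WT-CBL (-0.53 ± 0.03). Of 18 tested genes of the G1 transition 7 were higher (38.9%) and 1 lower (5.56%). The S-phase transcription factor E2f2 had 180.4, 163 and 171 in CBL-70Z and 97.8, 75.5 and 125 in WT-CBL (0.81 ± 0.15). Cdk6, a kinase that pairs with D cyclins, had 367, 370.3 and 397 in CBL-70Z and 226, 211 and 176 in WT-CBL (0.89 ± 0.09), and the CDK inhibitor Cdkn1a was the lower one (-0.18 ± 0.03). Of 40 tested mitosis and spindle genes 20 were higher (50%) and 0 lower (median 0.11). Among the largest differences were those of long genes such as the proliferation antigen Mki67 (0.46 ± 0.05) and the kinetochore proteins Cenpf (0.42 ± 0.05) and Cenpe (0.35 ± 0.04). These differences shrank to 0.33, 0.20 and 0.21 with the trend removed, when the list had 20 higher and 1 lower. Of 44 tested replication genes 12 were higher (27.3%) and 2 lower (4.55%), with a median of 0.07. Uhrf1 (0.33 ± 0.04) and Cdc6 (0.32 ± 0.07) led the higher ones. The lower ones were Dut and Rpa1. Without CBL-70Z replicate 1 or replicate 2 the lower calls numbered 0, and without replicate 3 they numbered 1.

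Most lipid synthesis genes were higher and most ATF4-linked stress genes were lower, each by little. Of 34 tested cholesterol and fatty acid synthesis genes 24 were higher (70.6%) and 1 (2.94%), Ebp, lower (median 0.14). The counts were 21 and 1 once the trend was removed and 19 and 2 without CBL-70Z replicate 3. Lss, lanosterol synthase, had 5404, 5412 and 5475 normalised reads in CBL-70Z and 4299.9, 4394 and 4276 in WT-CBL (0.33 ± 0.03). Idi1, which isomerises the isoprene unit, was higher by 0.40 ± 0.07, with a mean of 366 ± 8.58 in CBL-70Z and 278 ± 21.1 in WT-CBL. The fatty acid elongase Elovl6 was higher by 0.34 ± 0.04. Of 40 tested genes of the ATF4 and unfolded protein response 2 were higher (5%) and 24 lower (60%), with a median of -0.14. Chac1, which degrades glutathione, had 581, 587 and 572 in CBL-70Z and 839, 836 and 884 in WT-CBL (-0.56 ± 0.05). The pseudokinase Trib3 had 478, 522 and 468 in CBL-70Z and 646, 645 and 765 in WT-CBL (-0.48 ± 0.07), and Ddit3 (CHOP) and Asns (asparagine synthetase) were lower by smaller amounts (-0.34 ± 0.05 and -0.20 ± 0.04). The highest limma adjusted p among these 4 genes was 0.000626, for Asns. With the trend removed 0 were higher and 19 lower, and the cystine transporter Slc7a11, called higher (0.38 ± 0.09) together with Cebpg, no longer passed (0.16, limma adjusted p = 0.223).

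Of 31 tested p53 targets 2 were higher (6.45%) and 10 lower (32.3%). Btg2 (-0.33 ± 0.04), Plk2 (-0.29 ± 0.04) and Phlda3 (-0.29 ± 0.04) were among the lower ones. With the trend removed 1 was higher and 13 lower, and in DESeq2 0 were higher and 9 lower. The higher calls, Apaf1 and Rrm2b, numbered 0 without CBL-70Z replicate 1 or replicate 2, and 1 without CBL-70Z replicate 3, WT-CBL replicate 2 or WT-CBL replicate 3. Of 33 tested interferon-response genes 3 (9.09%) were higher (Stat2, Ifit2 and Gbp2) and 8 lower (24.2%). Isg15 was lower, with 119, 113 and 107 in CBL-70Z and 172, 152 and 205 in WT-CBL (-0.63 ± 0.11). With the trend removed and WT-CBL replicate 3 left out 5 members were lower. The call of Rtp4 (-0.50 ± 0.14) was lost without CBL-70Z replicate 3 or WT-CBL replicate 1. Of 17 tested iron genes 6 were higher (35.3%) and 4 lower (23.5%). The ferroxidase ceruloplasmin, Cp, had 3018, 2915 and 3001 in CBL-70Z and 1525, 1561 and 1482 in WT-CBL (0.97 ± 0.04), and the ferritin receptor Scara5 had 460.0, 428 and 438 in CBL-70Z and 277, 269 and 234 in WT-CBL (0.77 ± 0.08). The metalloreductase Steap1 (-0.58 ± 0.04) and the heme oxygenase Hmox1 (-0.42 ± 0.04) were lower, as were Ftl1 and Steap2. Of 34 tested glycolysis and hypoxia genes 3 were higher (Slc2a1, Hk2 and Vegfa) and 4 lower (Adm, Egln3, Pfkfb3 and Pfkp). In the main test these shares, 8.82% and 11.8%, were below those over all genes. The vasodilator peptide gene Adm was the lowest, with 439, 386 and 411 in CBL-70Z and 761, 776 and 768 in WT-CBL (-0.90 ± 0.06). The higher calls of this list were 7 without WT-CBL replicate 3, 7 with the trend removed and 1 without CBL-70Z replicate 1. With the trend removed and WT-CBL replicate 3 left out they were 12, so the share of higher calls depended on the setting.

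Many genes of the ribosome and the respiratory chain, whose transcripts are short (median exon lengths 1739 and 1718 bases), were lower in CBL-70Z. Of 85 tested cytosolic ribosomal protein genes 0 were higher and 49 lower (57.6%), with a median of -0.15. Removal of the trend left 1 higher and 32 lower, and leaving out WT-CBL replicate 3 as well left 1 and 25. Without CBL-70Z replicate 1 the lower ones were 29. Rps27l had 1378, 1470.2 and 1452 normalised reads in CBL-70Z and 1679, 1671 and 1796 in WT-CBL (-0.26 ± 0.04), and because ribosomal protein genes are known to have many processed pseudogenes, and reads shared with them were not measured, single members are uncertain. The call of Rpl37 (-0.24 ± 0.09) was lost with the trend removed and without CBL-70Z replicate 2, CBL-70Z replicate 3 or WT-CBL replicate 3. Of 79 tested nuclear-encoded respiratory chain subunits 0 were higher and 38 lower (48.1%), with a median of -0.15. The lower ones were 30 once the trend was removed, 19 when WT-CBL replicate 3 was left out as well and 23 without CBL-70Z replicate 2. Ndufa1, a complex I subunit, had 1238, 1187 and 1181 in CBL-70Z and 1377, 1406 and 1498 in WT-CBL (-0.25 ± 0.04), and the call of Cox5b (-0.29 ± 0.08) was lost without CBL-70Z replicate 2 or replicate 3. Of 10 tested mitochondrially encoded genes 0 were higher and 1, ND6, was lower (-0.23 ± 0.05), with 2 lower without WT-CBL replicate 3. Of 298 tested numbered Zfp genes 60 were higher and 12 lower (median 0.06), a share of higher calls near that of all genes, and 43 were higher and 21 lower with the trend removed. Zfp871 led with 861, 914 and 809 in CBL-70Z and 468, 459.7 and 322 in WT-CBL (1.07 ± 0.11), the lowest value being that of WT-CBL replicate 3. With any single library left out the lower Zfp calls numbered 4 to 9.

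CBL-70Z was also set against CBL-Y371S, the other mutant line, with the same test. limma called 7728 of 15338 genes (50.4%), 3908 higher (25.5%) and 3820 lower (24.9%) in CBL-70Z. With all 12 libraries fitted, 5359 genes were called against WT-CBL in place of 4740. The 50.4% and the 31.5% against WT-CBL are therefore not on the same footing. This comparison shares the CBL-70Z libraries with the one against WT-CBL, so the values are only given side by side. Among the 15 genes highest against WT-CBL, 7 were also higher than in CBL-Y371S and 8 were not called. Fgd4 was at 206 ± 33.9 in CBL-70Z and 103 ± 4.96 in CBL-Y371S, a log2 difference of 0.99 ± 0.27 (limma adjusted p = 0.00484), beside 4.77 ± 0.29 against WT-CBL. Pi15 differed from CBL-Y371S by 1.07 ± 0.14 and from WT-CBL by 1.66 ± 0.15, and Tenm4 differed from CBL-Y371S by 0.66 ± 0.10 and from WT-CBL by 2.96 ± 0.11. Stra6, in contrast, was at 848 ± 29.2 in CBL-70Z and 863 ± 30.1 in CBL-Y371S (-0.03 ± 0.06, limma adjusted p = 0.741), and Upp1 was at 172 ± 8.73 in CBL-70Z and 175 ± 28.4 in CBL-Y371S (-0.01 ± 0.16). Among the 15 lowest, 6 were also lower than in CBL-Y371S, 3 were higher and 6 were not called. Slc6a12 was at 5.78 ± 0.631 in CBL-70Z and 55.3 ± 8.48 in CBL-Y371S (-3.05 ± 0.25, limma adjusted p = 7.09e-09). Aff3, Wisp2 and Rasl11a were above CBL-Y371S, by 0.73 ± 0.17, 0.24 ± 0.03 and 0.13 ± 0.03. Of the ERK-linked genes, Etv5 (-0.05 ± 0.05) and Hmga2 (-0.02 ± 0.03) were not called against CBL-Y371S, Etv1 was higher than there (0.21 ± 0.08, limma adjusted p = 0.0338) and Etv4 was lower than there (-0.39 ± 0.05). Id1 was lower than in CBL-Y371S (-0.81 ± 0.04) and the smooth-muscle genes Actg2, Cnn1 and Myl9 were not called, while Tagln was higher than in CBL-Y371S (0.13 ± 0.05, limma adjusted p = 0.0387).

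**Figure D5:**
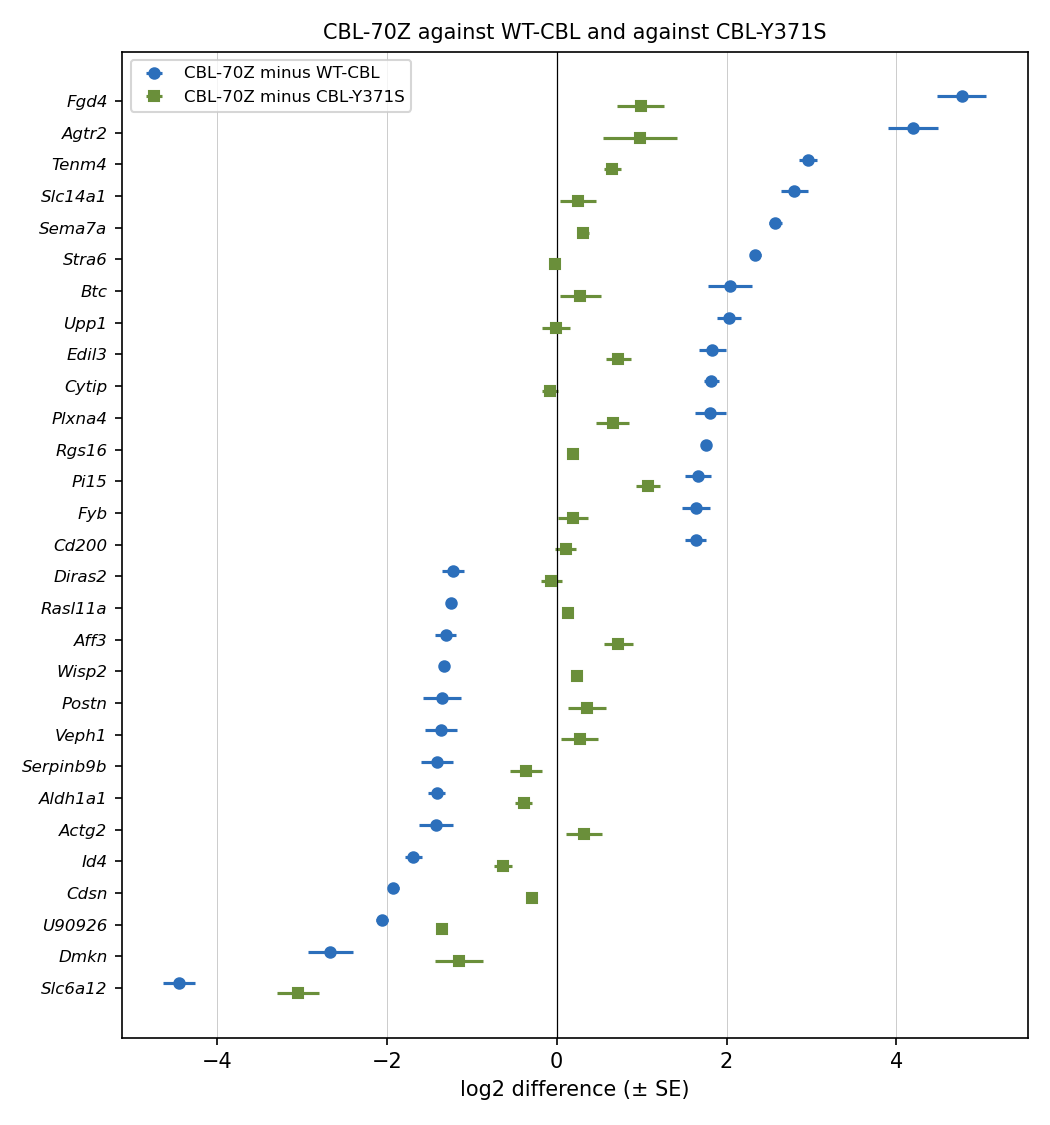
Log2 difference with its limma SE for 29 of the 30 genes most higher or most lower in CBL-70Z against WT-CBL, given as CBL-70Z minus WT-CBL (blue circles) and CBL-70Z minus CBL-Y371S (green squares). Both use the same 3 CBL-70Z libraries. Fgd4 lies at 4.77 and 0.99, and Slc6a12 at -4.44 and -3.05.

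Genes with a large difference sometimes lay side by side in the genome. Among 187 called genes with a fold of 2 or more that were placed on chromosomes 1 to 19 or X, 16 adjacent pairs were at most 500000 bases apart, 13 in the same direction and 3 in opposite directions. The neighbours Sema7a (57940112 to 57962865) and Stra6 (58063788 to 58153996) on chromosome 9 were separated by 100923 bases, and Islr, the next tested gene after Stra6, was higher as well (log2 difference 0.83 ± 0.08, limma adjusted p = 4.58e-06). The tested genes on either side of the 3 were not higher. Aldh1a1 and Aldh1a7 on chromosome 19 were 49488 bases apart and both lower. Ptx3 lies within Veph1 on chromosome 3 and 1700006J14Rik within Hmga2 on chromosome 10. Because strand is not kept by the TruSeq v2 kit, reads from any exon bases that these genes share cannot be told apart. Whether their exons overlap was not examined. By chromosome the median difference stayed between -0.03 (chromosome 17) and 0.04 (chromosome 12).

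The cells kept the profile of fibroblasts. All 10 fibroblast markers were tested, among them Col1a1, Col1a2, Dcn and Lum, and their summed level was 771048 to 784436 normalised reads in CBL-70Z and 874496 to 921603 in WT-CBL, with 4 members higher and 5 lower. The lower ones numbered 2 without CBL-70Z replicate 1 and 3 without CBL-70Z replicate 2. Markers of other cell types had far lower sums. The 8 blood cell markers summed to 104 to 125 in CBL-70Z and 95.1 to 147 in WT-CBL, and 7 of them had a mean under 10. Of the 6 epithelial markers, whose sums were given above, 3 had a mean under 10. The basal keratin gene Krt14 was at 58.8 ± 5.69 in CBL-70Z and 101 ± 11.5 in WT-CBL (-0.77 ± 0.14) and was the called one, and without WT-CBL replicate 2 or replicate 3 the called ones were 2. The 5 endothelial markers summed to 32.3 to 39.0 in CBL-70Z and 29.3 to 49.4 in WT-CBL, the 6 adipocyte markers to 24.9 to 34.8 in CBL-70Z and 46.0 to 54.2 in WT-CBL, and the 5 skeletal muscle markers to 18.38 to 18.99 in CBL-70Z and 20.9 to 31.0 in WT-CBL. Lep and Myod1 were at 0 in all 6 libraries.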

How the data were processed

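RNA of 4 stable NIH-3T3 lines, 3 libraries each, was prepared by the authors with the TruSeq RNA v2 kit, which does not mark strand. The sources name FastQC 0.10.1, TopHat2 2.0.13, Bowtie2 2.2.4.0, HTSeq 0.9.1, DESeq2 and GRCm38. The annotation release is not given in the sources used here. The deposited tables, 1 for each CBL line beside EV, hold a per-gene signal that the authors made by dividing read counts by DESeq2 size factors. Their fold change and p-value columns were not used.

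Repeated lines of an ID were identical and counted once. The CBL-70Z table was brought to the scale of the WT-CBL table by the geometric mean of the ratios of the shared EV columns (1.02331), and the CBL-Y371S table likewise (1.00414). Values were multiples of 1 read in 100% of cases (tolerance 1e-06), and the reads so recovered went into edgeR 4.0.16 and DESeq2 1.42.0 as alternatives. The main test was limma 3.58.1 with an intensity trend (R 4.3.3) on log2(value + 1) of genes averaging 10 or more in either line. On simulated data of 15046 genes, 50 changed at each fold, it recovered 80% of 1.25-fold, 96% of 1.5-fold and 100% of 2-fold changes. These percentages were not split by read level, so they do not give the recovery of genes with few reads. How the length and GC trend or the spread of WT-CBL replicate 3 affects recovery was not tested. Promoters and names came from RefSeq and GENCODE M21 (GRCm38).

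Named genes are the 15 highest and 15 lowest among called genes averaging 50 or more in the higher line whose libraries did not overlap (leaving out numbered Gm and Rik symbols), 8 genes of the study's text, and up to 4 called members of each list, those with the largest differences at that mean. A further 82 genes were named after their values were seen, and some genes of the rule and lists are not reported here. The members and gene lists were chosen with earlier results of these data known.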

Additional observations from a re-analysis of the deposited data

How the results depend on the processing

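Called genes numbered 4793 in edgeR, 3614 in DESeq2, 5359 with all 12 libraries in the fit, 4241 without the filter and 4503 with the length and GC trend removed, against 4740. Of the calls, 55.7% were higher in CBL-70Z, against 49.1% with the trend removed. Leaving out 1 library at a time gave 3343 to 4763 called genes, 1933 to 2645 higher and 1410 to 2118 lower, and 178 to 222 at a fold of 2 or more. Called genes at a fold of 2 or more numbered 101 in DESeq2, 85 with a filter at a mean of 50 and 125 with a pseudocount of 5, against 189. Against CBL-Y371S, leaving out libraries gave 6942 to 7178 called genes. Libraries with the same number in the 2 lines did not deviate together (correlations -0.03, 0.02 and 0.04), so the numbers were not taken as pairs, and a replicate block gave 4690 called genes, 2607 higher and 2083 lower, with 2 oncofetal and imprinted genes lower in place of 1. Of the genes named with a value, those with a change of sign were Egr1 and Srf without CBL-70Z replicate 1 and Egfr with the trend removed. None of the 3 was called where it changed sign. Leaving out libraries gave log2 differences of -0.0079 to 0.050 for Egr1 and -0.018 to 0.080 for Srf. The Egfr log2 difference was -0.0051 with the trend removed, with or without a replicate block, and -0.0164 when WT-CBL replicate 3 was also left out, an alternative chosen after seeing the data. Leaving out 1 library also ended single calls of genes with small differences or few reads. Without CBL-70Z replicate 1 these were Acvr2b, Apaf1, Cebpg, Dut, Egfr, Fosl1, Fzd7, Hk2, Rgs5, Rpa1, Rrm2b, Slc2a1, Steap2, Vcl and Wnt4. Without CBL-70Z replicate 2 these were Acvr2b, Apaf1, Cebpg, Cox5b, Dut, Egfr, Fyn, Fzd7, Ifit2, Rgs2, Rpa1, Rpl37, Rrm2b, Slc2a1, Vcl and Wnt4. Without CBL-70Z replicate 3 these were Acvr2b, Cebpg, Cox5b, Egfr, Fyn, Fzd7, Rgs2, Rgs5, Rpa1, Rpl37, Rrm2b, Rtp4, Steap2, Vcl and Wnt4. Without WT-CBL replicate 1 these were Egfr, Fyn, Fzd7, Rgs5, Rtp4 and Wnt4. Without WT-CBL replicate 2 these were Cebpg, Fyn, Fzd7, Rgs2, Rgs5 and Rrm2b. Without WT-CBL replicate 3 these were Acvr2b, Apaf1, Egfr and Rpl37. The highest limma adjusted p was 0.206, for Wnt4, and no sign changed. The cause of these changes was not tested. Genes averaging under 10 normalised reads in both lines were too shallow to be compared here.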
